A study of Mus musculus with 9 samples.

Results

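The keratins of the interfollicular epidermis, the stretch of skin surface between hair follicles, were followed in mouse skin lesions treated with drug-loaded microneedles. The genes were taken by name from the deposited count table. They were Krt5 and Krt14 of the basal layer and Krt1, Krt2, Krt10, Krt77, Krt78, Krt79 and Krt80 of the layers above it, 9 of the 54456 genes listed. Microneedles are short needles that carry a load into the skin. The labels give 3 groups of 3 libraries, all made from AA-like skin lesions in a study of immune-mediated hair loss. In the loaded MN group the needles carried IL-2 and CCL22. T cells grow in response to IL-2, while CCL22 attracts cells that carry the receptor CCR4. In the empty MN group the needles carried neither, and the untreated group had no needles. Strain, age, sex, body site and time after treatment are not given in the labels used here. Nor do they state whether the 3 libraries of a group stem from different mice, so every p-value covers only the spread among these libraries, which may be technical.

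Keratins are the intermediate filament proteins of epithelia. A filament is built from pairs of a type I and a type II chain, so a keratinocyte needs both. Basal keratinocytes make Krt14 (type I) with Krt5 (type II), and cells that leave the basal layer to differentiate switch to Krt10 (type I) with Krt1 (type II). Krt2, Krt77, Krt78, Krt79 and Krt80 are further type II chains of differentiating cells. In mice, Krt2 is known from the epidermis of the ear, tail and sole, and Krt79 from the cells that line the hair canal. Krt5 and Krt14 are also made in the outer root sheath of the follicle and in sebaceous glands, so whole skin does not isolate the surface epidermis.

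All 9 genes lie in the keratin clusters of the mouse genome, in mm39. Krt10 (99276080 to 99280190) and Krt14 (100093988 to 100098374) are on chromosome 11. On chromosome 15 lie Krt80 (101245325 to 101268043), Krt5 (101615505 to 101621333), Krt2 (101719124 to 101726604), Krt1 (101753861 to 101759229), Krt77 (101767166 to 101778140), Krt79 (101837767 to 101848759) and Krt78 (101854436 to 101862722). Every one is on the minus strand.

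Promoter windows are shown for Krt5, the chain that differed least between the groups, Krt10, the most abundant, and Krt2, which had the largest fold changes in both comparisons with empty MN skin. They come from RefSeq, on build GRCm38.p6, and run from 250 bases before to 50 bases after the gene's start. Windows were on hand for 7 of the 9 genes. In 6 of them the start lay within 100 bases of the principal transcript's start. In the Krt14 window it lay 1518 bases away, so that window was not used. Krt5 is from chr15:101712856-101713155, Krt10 from chr11:99389315-99389614 and Krt2 from chr15:101818120-101818419, all on the minus strand. Capitals mark matches to 5 motifs searched on both strands.
Krt5: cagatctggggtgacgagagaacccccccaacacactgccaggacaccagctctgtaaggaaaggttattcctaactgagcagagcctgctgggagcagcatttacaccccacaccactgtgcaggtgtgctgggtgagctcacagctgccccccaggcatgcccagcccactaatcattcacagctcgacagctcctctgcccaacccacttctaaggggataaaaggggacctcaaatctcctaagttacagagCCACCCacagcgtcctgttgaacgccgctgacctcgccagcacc
Krt10: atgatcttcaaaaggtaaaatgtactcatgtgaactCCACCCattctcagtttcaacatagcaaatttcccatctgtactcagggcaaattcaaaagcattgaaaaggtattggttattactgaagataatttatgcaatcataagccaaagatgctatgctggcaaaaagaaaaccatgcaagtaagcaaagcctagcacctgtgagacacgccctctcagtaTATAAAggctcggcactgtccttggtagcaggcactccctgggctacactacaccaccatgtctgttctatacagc
Krt2: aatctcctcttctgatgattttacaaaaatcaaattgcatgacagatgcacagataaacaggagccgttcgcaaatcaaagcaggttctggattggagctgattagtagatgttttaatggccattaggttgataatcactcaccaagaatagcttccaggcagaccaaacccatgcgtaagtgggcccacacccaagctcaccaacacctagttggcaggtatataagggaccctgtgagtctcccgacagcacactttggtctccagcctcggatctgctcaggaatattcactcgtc
The Krt5 window holds 1 match to the KLF motif CCACCC, at bases 7 to 12 after the start. That motif occurs in 31.5% of 32851 RefSeq promoter windows of the same length. In the Krt10 window CCACCC lies at -214 to -209 and a TATA box (TATAAA, in 13.6% of windows) at -26 to -21. The AP-1 motif TGANTCA, the AP-2 motif GCCNNNGGC and the GRHL motif ACCGGTT were not found in these windows, and occur in 7.81%, 16.6% and 1.02% of all windows. The Krt79 window had 5 CCACCC matches, all on the opposite strand and some sharing a base. The Krt2, Krt77 and Krt78 windows had no match to any of the 5 motifs. Only the letters TATAAA were searched as the TATA box, so other forms, such as tatataa in the Krt2 window, were not marked. A match here is a run of letters, not a binding site.

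Of the 9 genes, Krt1, Krt10, Krt14, Krt5 and Krt77 ranked between 1 and 17 by count in every library, Krt79, Krt80 and Krt78 between 69 and 378, and Krt2 between 6270 and 11522. Library totals lay between 85962714 and 96740589 counts, and all 9 keratins passed the filter on low counts. Together they took 3.48% ± 0.121 of all counts in loaded MN skin, 5.33% ± 0.0505 in empty MN skin and 4.26% ± 0.0592 in untreated skin (SD, n = 3 each). Krt10 alone was the gene with the highest count in every empty MN library, the second highest in every untreated library and the third highest in every loaded MN library. Mitochondrially encoded genes, a sign of RNA quality and tissue makeup, took 3.83% ± 0.0622 of counts in loaded MN skin, 3.37% ± 0.0544 in empty MN skin and 4.62% ± 0.0891 in untreated skin. Their part in the results was not tested.

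Levels of different keratins were compared per kilobase of spliced transcript, in CPM per kb, where CPM is a gene's count relative to the scaled library total. The counts also include reads in introns, which the spliced length leaves out, so the order between genes is approximate. Krt80, for example, spans 22719 bases with a transcript of 3067 bases, and Krt14 spans 4387 bases with a transcript of 1698. Krt10 stood highest in each group, at 5750 ± 261 CPM per kb in loaded MN skin, 10543 ± 207 in empty MN skin and 7518 ± 113 in untreated skin. The place of Krt14 in the order differed. In untreated skin Krt14 came second, at 4254 ± 266 CPM per kb, ahead of Krt1 (3828 ± 60.8), Krt5 (2465 ± 61.4) and Krt77 (1740 ± 48.6). In loaded MN skin it came after Krt10, Krt1 and Krt5, at 2109 ± 69.6 CPM per kb, with Krt1 at 2420 ± 100 and Krt5 at 2257 ± 47.1. In empty MN skin Krt1 was second (5123 ± 172), with Krt14 (2393 ± 85.0), Krt5 (2274 ± 47.9) and Krt77 (2132 ± 32.9) close together. Krt14 and Krt5 had ranges there that nearly touched, from 2323 to 2488 and from 2226 to 2322 CPM per kb. Krt79, Krt80, Krt78 and Krt2 followed in that order in all 3 groups. Krt2 was the lowest, at 4.48 ± 0.204 CPM per kb in loaded MN skin, 10.8 ± 1.09 in empty MN skin and 2.97 ± 0.243 in untreated skin.

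The comparison of loaded MN with untreated skin asks how lesions that received both proteins differed from lesions left alone. Both basal keratins and 4 of the 7 suprabasal ones fell, 2 suprabasal ones rose, and Krt77 did not pass. The test was edgeR's quasi-likelihood test at a Benjamini-Hochberg adjusted p under 0.05 over 26081 genes. It called 42.3% of all tested genes in this comparison, 23.3% lower and 19.0% higher, so a call alone is common. The median log2 fold change of the 9 keratins was -0.37, against -0.014 over all tested genes. Of the 9 keratins 4 were called with a size of at least 0.5 on the log2 scale, as were 9.91% of all genes. The groups did not overlap for 8 of the 9, against 52.7% of all genes. Of these 8, 2 were higher and 6 lower, against 24.6% and 28.1% of all genes.

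The comparison of loaded with empty MN skin asks what went with the load beyond the needles. All 7 suprabasal keratins and Krt14 were lower in loaded MN skin, and Krt5 did not pass. The same test called 41.4% of all genes here, 22.9% higher and 18.5% lower. The median log2 fold change of the 9 was -0.43, against 0.015 over all genes, and 4 of the 9 were called with a size of at least 0.5, against 12.0% of all genes. The groups did not overlap for 8 of the 9, all lower, against 50.8% of all genes, of which 22.7% were lower and 28.1% higher as shares of all genes.

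The comparison of empty MN with untreated skin asks what went with the needles alone. Krt1, Krt10, Krt2, Krt77 and Krt80 rose, Krt14 and Krt5 fell, and Krt78 and Krt79 did not pass. Of all genes 48.3% were called, 20.2% higher and 28.1% lower. The median log2 fold change of the 9 was 0.29, against -0.016 over all genes, and 3 of the 9 were called with a size of at least 0.5, against 16.0% of all genes. For 7 of the 9 the groups did not overlap, against 54.6% of all genes. Of these 7, 5 were higher and 2 lower, against 23.5% and 31.1% of all genes. The 3 comparisons share libraries, so they are not independent of one another. In a test over all 3 groups at once every one of the 9 was called (edgeR adjusted p from 1.31e-17 to 0.00513), as were 59.2% of all genes. That count was 8 of 9 with library size alone as the scaling and without untreated library 2. In RNA from whole skin, fewer cells of a type and less RNA per cell cannot be told apart.

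**Figure D1:**
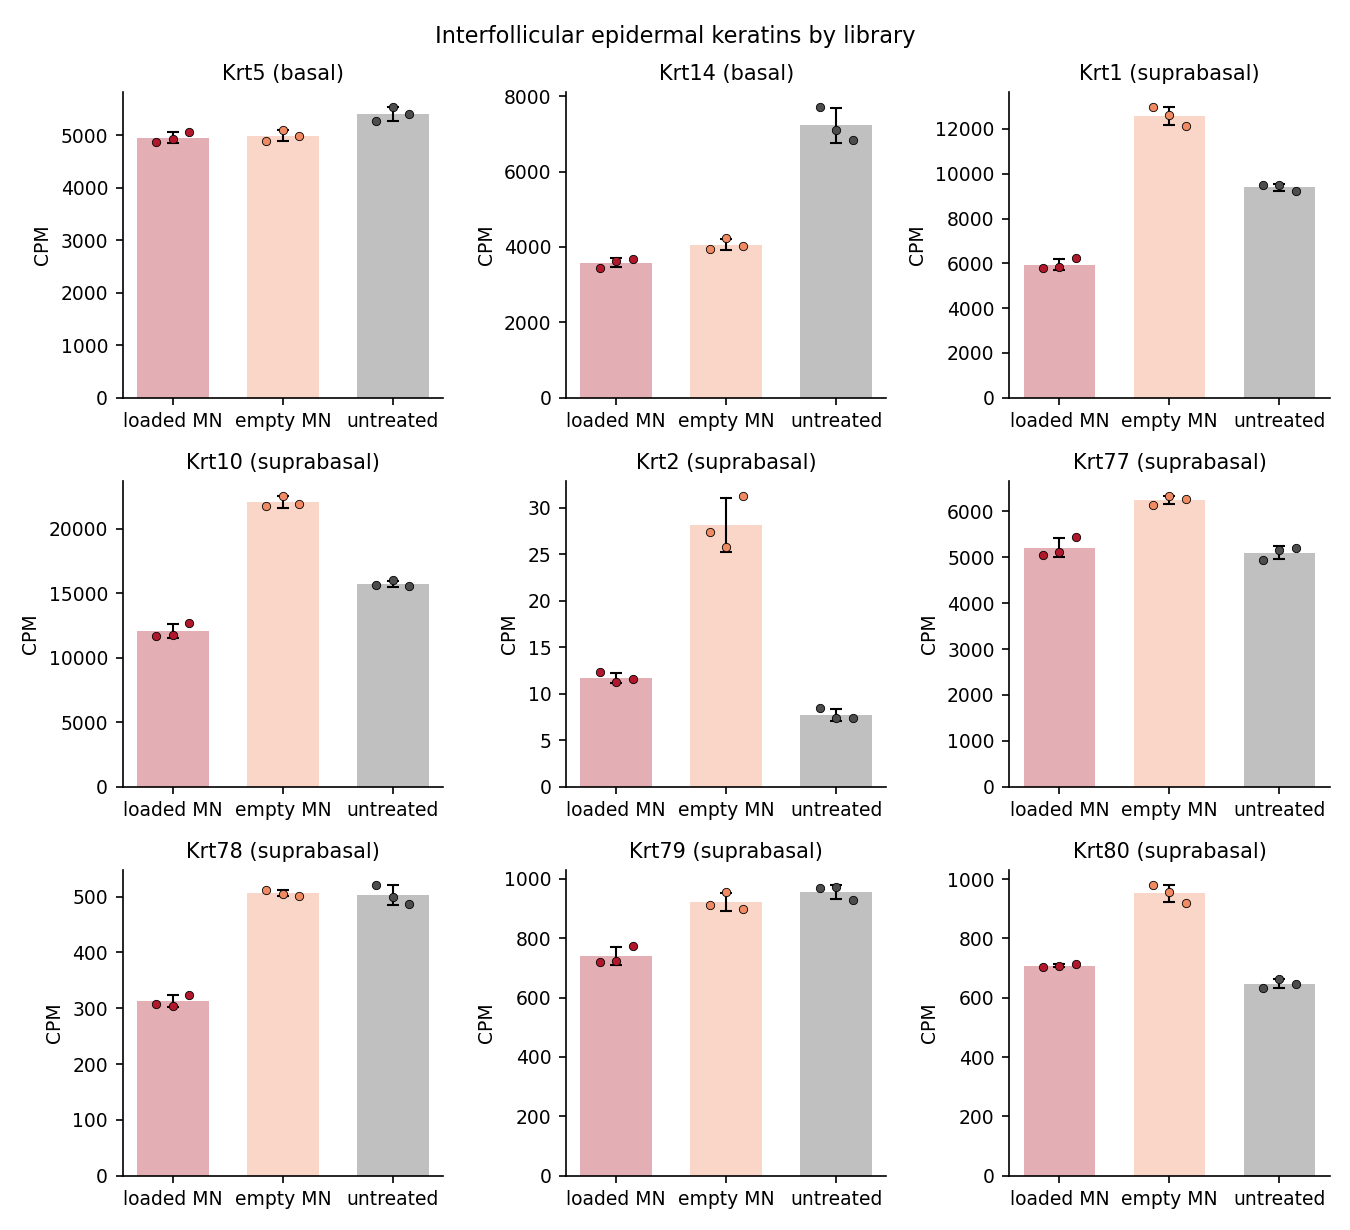
Level of each keratin in CPM (y axis, from 0) in the loaded MN, empty MN and untreated groups. Points are single libraries, bars are means and error bars are SD (n = 3). Krt14 stands near 7223 CPM in untreated skin and near or under 4064 CPM with either device, while Krt5 stays between 4874 and 5550 CPM in all 9 libraries.

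The basal pair parted: Krt14 was 0.496-fold in loaded MN and 0.563-fold in empty MN relative to untreated skin, and Krt5 differed little. Krt14, the type I chain of basal cells, had 3446, 3628 and 3668 CPM in the loaded MN libraries, 3945, 4225 and 4022 in the empty MN libraries and 7725, 7094 and 6849 in the untreated libraries. The 3 groups did not overlap, and every untreated library lay far above the 6 treated ones. Its log2 fold change was -1.01 (SE 0.043, edgeR adjusted p = 1.83e-16) for loaded MN over untreated skin and -0.83 (SE 0.043, edgeR adjusted p = 4.39e-15) for empty MN over untreated skin. Between loaded and empty MN skin it was -0.18 (SE 0.043, edgeR adjusted p = 8.51e-04).

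Krt5, the type II partner of Krt14, had 4874, 4927 and 5074 CPM in the loaded MN libraries, 4891, 5101 and 4993 in the empty MN libraries and 5280, 5550 and 5418 in the untreated libraries. The untreated libraries were slightly above all treated ones, and the loaded and empty MN libraries overlapped. The log2 fold change was -0.13 (SE 0.037, edgeR adjusted p = 0.00542) for loaded MN over untreated skin and -0.12 (SE 0.037, edgeR adjusted p = 0.00898) for empty MN over untreated skin. Loaded and empty MN skin could not be told apart by Krt5 (log2 fold change -0.011, SE 0.037, edgeR adjusted p = 0.851). Both calls were lost when counts were scaled by library size alone, at log2 fold changes of 0.0051 (edgeR adjusted p = 0.922) for loaded MN and -0.013 (edgeR adjusted p = 0.784) for empty MN. That scaling moved all genes by a median of 0.13 for loaded MN over untreated skin and 0.10 for empty MN over untreated skin. The call for empty MN was also lost without empty MN library 3 (-0.076, edgeR adjusted p = 0.105) or untreated library 2 (-0.10, edgeR adjusted p = 0.0630). The Krt14 calls held under all of these settings.

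Some reads of the basal pair could belong to sister genes. Of the 1649 stretches of 50 bases in the Krt14 transcript, 14.4% also occur in another gene, 188 of them in Krt16. Krt16, an injury-induced type I keratin, stood at 982 ± 68.9 CPM in untreated skin, which holds only the reads counted as Krt16. Krt14 differed by 3642 CPM between loaded MN and untreated skin. Of the 2148 such stretches in Krt5, 8.52% occur in another gene, 150 of them in Krt6a. Krt5 differed by 458 CPM between loaded MN and untreated skin and Krt6a by 535 CPM. The share of misplaced reads was not tested. The 7 suprabasal keratins share no stretch of 50 bases with the transcript of another gene.

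The main pair of the suprabasal layers, Krt1 and Krt10, was highest in empty MN skin and lowest in loaded MN skin. Krt1, the type II chain, had 5783, 5814 and 6224 CPM in the loaded MN libraries, 12969, 12636 and 12129 in the empty MN libraries and 9487, 9478 and 9224 in the untreated libraries. Krt10, its type I partner, had 11665, 11789 and 12667 CPM in the loaded MN libraries, 21760, 22570 and 21900 in the empty MN libraries and 15624, 16015 and 15589 in the untreated libraries. For both genes all 9 libraries fell into 3 separate bands, with untreated skin in the middle.

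Krt1 was 0.472-fold in loaded relative to empty MN skin (log2 fold change -1.08, SE 0.040, edgeR adjusted p = 6.61e-18). It was 0.632-fold in loaded MN relative to untreated skin (log2 fold change -0.66, SE 0.040, edgeR adjusted p = 1.32e-13) and 1.34-fold in empty MN relative to untreated skin (0.42, SE 0.040, edgeR adjusted p = 5.01e-10). Krt10 changed in the same directions by -0.87 (SE 0.040), -0.39 (SE 0.040) and 0.49 (SE 0.040) on the log2 scale, with edgeR adjusted p-values of 4.33e-16, 5.90e-09 and 3.21e-11. A predicted gene on the other strand, Gm11940, overlaps Krt10 over 558 bases and had at most 3776 counts in a library, against 1043378 or more for Krt10.

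Krt2, a type II chain of late suprabasal cells that is known in mice from ear, tail and sole skin, was low but had the largest fold changes of the 9 in both comparisons with empty MN skin. It had 12.3, 11.3 and 11.5 CPM in the loaded MN libraries, 27.4, 25.8 and 31.3 in the empty MN libraries and 8.48, 7.37 and 7.40 in the untreated libraries. The raw counts behind these values ran from 1028 to 1100, from 2520 to 3021 and from 627 to 698. No groups overlapped, and unlike Krt1 and Krt10 the untreated libraries were the lowest. Krt2 was 3.63-fold in empty MN relative to untreated skin (log2 fold change 1.86, SE 0.070, edgeR adjusted p = 2.43e-14) and 1.51-fold in loaded MN relative to untreated skin (0.59, SE 0.074, edgeR adjusted p = 1.73e-06). It was 0.416-fold in loaded relative to empty MN skin (-1.27, SE 0.067, edgeR adjusted p = 4.76e-12).

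Krt77 and Krt80 shared the high level in empty MN skin. Krt77 is a type II chain that lies next to Krt1 and is known in human skin from sweat gland ducts. Its libraries had 5058, 5116 and 5440 CPM in loaded MN skin, 6141, 6329 and 6274 in empty MN skin and 4939, 5156 and 5208 in untreated skin. Loaded MN and untreated libraries overlapped (log2 fold change 0.029, SE 0.038, edgeR adjusted p = 0.597), and the empty MN libraries lay above both. Krt77 changed by -0.26 (SE 0.038, edgeR adjusted p = 1.45e-06) between loaded and empty MN skin and by 0.29 (SE 0.038, edgeR adjusted p = 2.02e-07) between empty MN and untreated skin. With library size alone as the scaling, the value for loaded MN over untreated skin was 0.16 and passed (edgeR adjusted p = 5.03e-04), close to the median shift of all genes under that scaling.

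Krt80 is a type II chain found near the desmosomes of differentiating cells. It had 703, 708 and 713 CPM in the loaded MN libraries, 979, 957 and 920 in the empty MN libraries and 634, 663 and 648 in the untreated libraries. The 3 groups were apart, with loaded MN skin only a little above untreated skin. The log2 fold changes were 0.13 (SE 0.034, edgeR adjusted p = 0.00283) for loaded MN over untreated skin, -0.43 (SE 0.034, edgeR adjusted p = 2.40e-11) for loaded over empty MN skin and 0.55 (SE 0.034, edgeR adjusted p = 8.65e-14) for empty MN over untreated skin. Gm35853, a predicted gene on the other strand, spans all 22719 bases of Krt80 but had at most 1027 counts, against 52130 or more for Krt80. The strand setting of the counting is not given in the sources used here.

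Krt78 and Krt79 followed another pattern, with a fall in loaded MN skin against both other groups. Krt78, a type II chain of suprabasal cells, had 308, 304 and 324 CPM in the loaded MN libraries, 512, 505 and 502 in the empty MN libraries and 521, 499 and 487 in the untreated libraries. All loaded MN libraries lay far under the other 6, which overlapped. Its log2 fold change was -0.69 (SE 0.035, edgeR adjusted p = 3.82e-15) over untreated skin and -0.70 (SE 0.035, edgeR adjusted p = 2.11e-15) over empty MN skin. For empty MN over untreated skin it was 0.0098 (SE 0.034, edgeR adjusted p = 0.846). That value passed with upper-quartile scaling (0.081, edgeR adjusted p = 0.0474) and with library size alone (0.11, edgeR adjusted p = 0.00409).

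Krt79, the chain known in mice from the hair canal, had 720, 723 and 774 CPM in the loaded MN libraries, 913, 955 and 897 in the empty MN libraries and 970, 971 and 929 in the untreated libraries. Again the loaded MN libraries stood apart and the others overlapped. The log2 fold change was -0.37 (SE 0.037, edgeR adjusted p = 2.45e-09) for loaded MN over untreated skin and -0.32 (SE 0.037, edgeR adjusted p = 2.97e-08) for loaded over empty MN skin. For empty MN over untreated skin it was -0.054 (SE 0.037, edgeR adjusted p = 0.241).

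**Figure D2:**
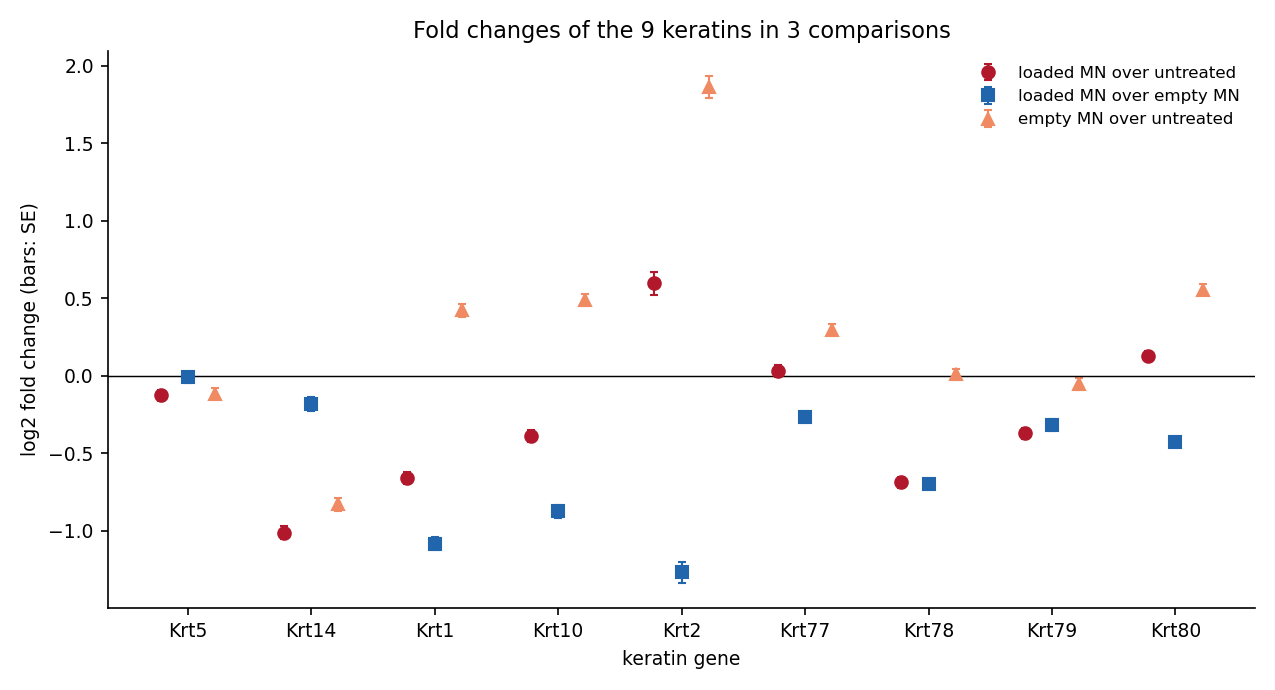
Log2 fold change (y axis, with SE bars) of each of the 9 keratins (x axis) in the 3 comparisons, which share libraries. Krt14 lies at -1.01 and -0.83 for both devices over untreated skin, and all 7 suprabasal genes lie below 0 for loaded over empty MN skin.

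Ratios of 2 genes within a library do not depend on how libraries are scaled to one another. Over 5 such ratios, an exact permutation test over all 1680 assignments of the 9 libraries to the 3 groups was run on the F statistic of the log2 ratios, which has no direction. Its smallest possible p is 0.00357. The Krt5 to Krt14 count ratio was 1.39 ± 0.0281 in loaded MN skin, 1.23 ± 0.0191 in empty MN skin and 0.752 ± 0.0597 in untreated skin (SD, n = 3 libraries each). Thus Krt14 counts exceeded Krt5 counts in each untreated library, and Krt5 counts exceeded Krt14 counts in each of the 6 treated ones. The groups did not overlap in this ratio (exact permutation p = 0.00357, adjusted over the 5 ratios 0.00446). These counts are not corrected for transcript length, which is 2197 bases for Krt5 and 1698 for Krt14. Per kb, Krt14 stayed above Krt5 in empty MN skin, at 2393 ± 85.0 against 2274 ± 47.9 CPM per kb. Only in loaded MN skin was Krt5 the higher of the pair per kb.

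The suprabasal partners gave another pattern. Their Krt1 to Krt10 count ratio was 0.493 ± 0.00221 in loaded MN skin, 0.570 ± 0.0228 in empty MN skin and 0.597 ± 0.00891 in untreated skin. The loaded MN libraries were apart from the rest, and the empty MN and untreated libraries overlapped (exact permutation p = 0.0107, adjusted 0.0107). On the log2 scale this ratio moved by -0.27 between loaded MN and untreated skin, whereas the Krt5 to Krt14 ratio moved by 0.88. The difference between these movements was not tested.

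Across the layers, the Krt10 to Krt14 count ratio was 3.36 ± 0.104 in loaded MN skin, 5.43 ± 0.0870 in empty MN skin and 2.19 ± 0.141 in untreated skin. Both treated groups were above untreated skin in this type I ratio of suprabasal to basal chains (over the 3 groups, exact permutation p = 0.00357, adjusted 0.00446). The type II ratio of Krt1 to Krt5 gave another order, at 1.20 ± 0.0254 in loaded MN skin, 2.52 ± 0.117 in empty MN skin and 1.74 ± 0.0529 in untreated skin. Here loaded MN skin was below untreated skin (over the 3 groups, exact permutation p = 0.00357, adjusted 0.00446). For loaded MN over untreated skin the type I ratio moved by 0.62 and the type II ratio by -0.53 on the log2 scale. The Krt2 to Krt10 ratio was 9.74e-04 ± 7.34e-05 in loaded MN skin, 0.00128 ± 1.45e-04 in empty MN skin and 4.93e-04 ± 4.42e-05 in untreated skin (exact permutation p = 0.00357, adjusted 0.00446).

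**Figure D3:**
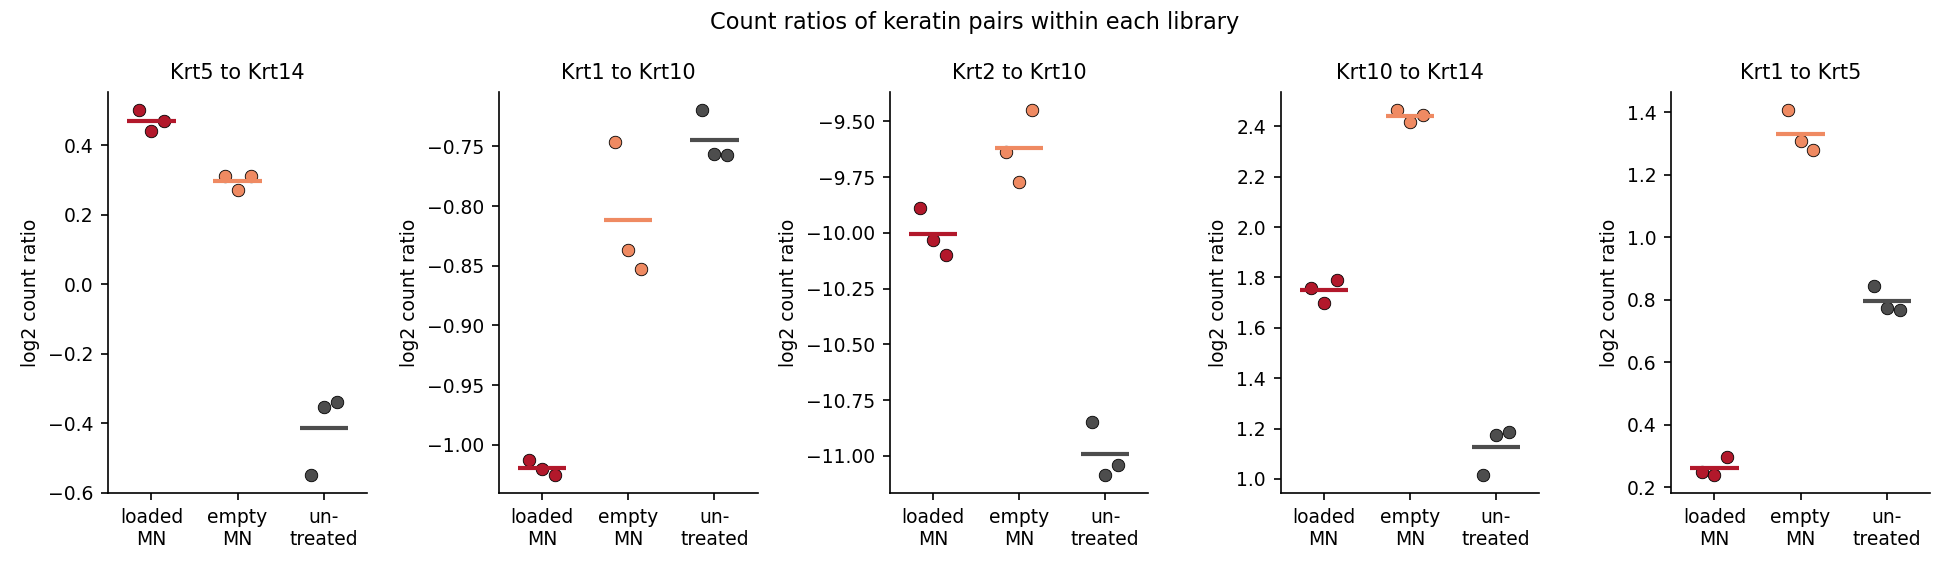
Log2 ratio of raw counts (y axis, a separate scale in each panel that does not start at 0) for 5 pairs of keratin genes in the loaded MN, empty MN and untreated libraries. Points are single libraries and lines are group means. The Krt5 to Krt14 ratio lies above 0 in all 6 treated libraries and below 0 in the 3 untreated ones.

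Summed levels show how the whole set moved. The 7 suprabasal keratins summed to 24956 ± 1043 CPM in loaded MN skin, 43311 ± 663 in empty MN skin and 32356 ± 379 in untreated skin, and the groups did not overlap. The basal pair summed to 8539 ± 211 CPM in loaded MN skin, 9059 ± 248 in empty MN skin and 12639 ± 369 in untreated skin. As a share of the counts of all 9, the basal pair made up 25.5% ± 0.431 in loaded MN skin, 17.3% ± 0.304 in empty MN skin and 28.1% ± 0.606 in untreated skin. Krt10 alone gave 35.9% ± 0.318 of the 9-gene counts in loaded MN skin, 42.2% ± 0.363 in empty MN skin and 34.99% ± 0.363 in untreated skin.

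The split between type I and type II chains depended on whether transcript length was taken into account. Per kb of transcript, the type I chains Krt10 and Krt14 made up 52.4% ± 0.220 of the summed level of the 9 genes in loaded MN skin, 55.3% ± 0.536 in empty MN skin and 57.1% ± 0.618 in untreated skin. Without correction for length they made up 46.6% ± 0.214 of the 9-gene counts in loaded MN skin, 49.9% ± 0.531 in empty MN skin and 51.0% ± 0.565 in untreated skin. With the counts of the further epidermal chains Krt15, Krt16, Krt17, Krt6a and Krt6b added, the type I share was 49.6% ± 0.152 in loaded MN skin, 51.5% ± 0.562 in empty MN skin and 52.6% ± 0.477 in untreated skin. Krt15, the other type I chain of basal cells, was looked up after the Krt14 values were seen. It stood at 474 ± 8.94 CPM in loaded MN skin, 499 ± 19.6 in empty MN skin and 567 ± 14.3 in untreated skin, and its log2 fold change for loaded MN over untreated skin was -0.26 (SE 0.035, edgeR adjusted p = 5.42e-07).

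Of the injury-induced keratins, Krt6a, Krt6b and Krt16 fell with both devices. Krt6b stood at 63.5 ± 2.65 CPM in loaded MN skin, 214 ± 20.2 in empty MN skin and 641 ± 50.1 in untreated skin. Of the 4 such genes, 3 fell in loaded MN skin and all 4 in empty MN skin, relative to untreated skin. Of all genes 23.3% and 28.1% fell in these comparisons. Between loaded and empty MN skin 3 fell and 1 rose, against 18.5% and 22.9% of all genes. The 1 that rose was Krt17 (log2 fold change 0.22). Krt17 did not pass for loaded MN over untreated skin (log2 fold change -0.022).

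**Figure D4:**
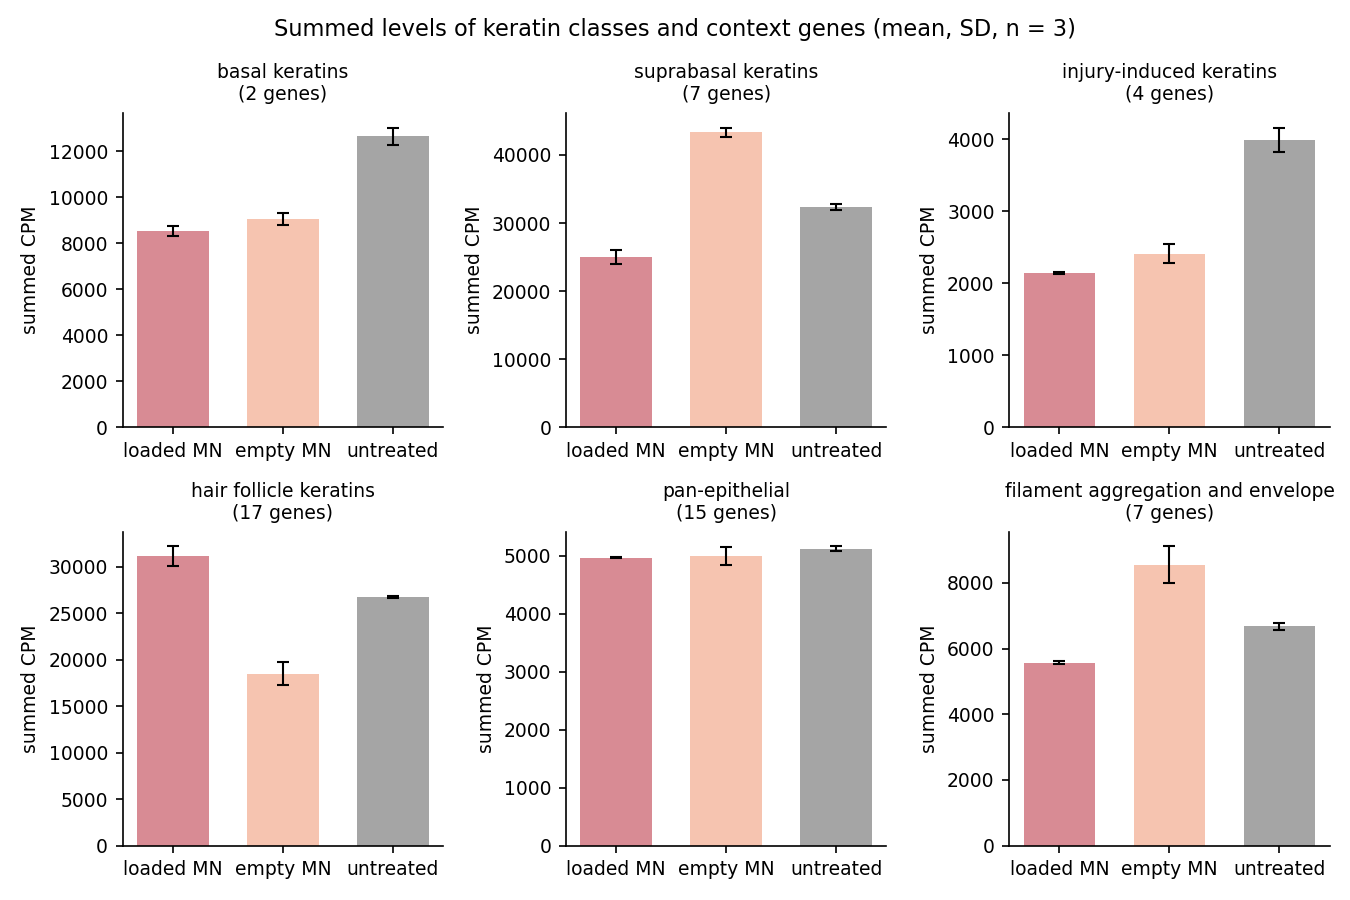
Summed CPM (y axis, from 0) of keratin classes and context lists in the loaded MN, empty MN and untreated groups. Bars are means and error bars SD over 3 libraries. Suprabasal keratins peak at 43311 CPM in empty MN skin, where hair follicle keratins are lowest at 18521 CPM, while the pan-epithelial list stays between 4969 and 5119 CPM.

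Other genes of the same cell layers were read from gene lists. As background, 19.0% of all genes rose and 23.3% fell for loaded MN over untreated skin (median log2 fold change -0.014), 22.9% rose and 18.5% fell for loaded over empty MN skin (0.015), and 20.2% rose and 28.1% fell for empty MN over untreated skin (-0.016). The directions below are from the main scaling. Scaling by library size alone was not run for these lists. It moved all genes by a median of 0.13 for loaded MN over untreated and 0.029 for loaded over empty MN skin. For empty MN over untreated skin the median shift was 0.10. Of 13 basal adhesion genes, which anchor basal cells to the basement membrane, 1 rose, 5 fell and 7 did not pass for loaded MN over untreated skin (median log2 fold change -0.033, against -0.014 over all genes). Between empty MN and untreated skin 5 rose and 3 fell (median -0.012), and between loaded and empty MN skin 2 rose and 7 fell (median -0.11). Col7a1, the collagen of anchoring fibrils, was at 99.7 ± 1.38 CPM in loaded MN skin, 165 ± 3.48 in empty MN skin and 98.4 ± 5.45 in untreated skin. Itgb1, an integrin chain, changed by -0.24 (SE 0.032) for loaded MN and by -0.39 (SE 0.032) for empty MN over untreated skin. Plec, which links keratin filaments to hemidesmosomes, rose with empty MN (0.34) and had a log2 fold change of 0.085 for loaded MN that did not pass.

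Desmosome genes, whose products tie the keratin filaments of neighbouring cells together, moved both ways. Of 14, 3 rose and 7 fell for loaded MN over untreated skin, 4 rose and 9 fell for loaded over empty MN skin, and 5 rose and 8 fell for empty MN over untreated skin. The medians were -0.089, -0.17 and -0.11, against -0.014, 0.015 and -0.016 over all genes. Cdsn, the corneodesmosin of the upper layers, had 767 ± 6.61 CPM in loaded MN skin, 1102 ± 35.9 in empty MN skin and 851 ± 21.1 in untreated skin, the order seen for Krt1 and Krt10. Dsg3, the desmoglein of lower layers, fell with both devices over untreated skin (-0.31 with loaded and -0.52 with empty MN). Perp fell as well (-0.57 and -0.39), while Dsg2 rose with loaded MN (0.21) and fell with empty MN (-0.37).

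Of 22 regulators of epidermal differentiation, 13 rose and 1 fell for loaded MN over untreated skin, against 19.0% and 23.3% of all genes (median 0.13, against -0.014). For empty MN over untreated skin 15 rose and 2 fell, against 20.2% and 28.1% of all genes (median 0.21, against -0.016). Between loaded and empty MN skin 5 rose and 9 fell, against 22.9% and 18.5% of all genes (median -0.049, against 0.015). Grhl3, a transcription factor of barrier formation, stood at 133 ± 2.64 CPM in loaded MN skin, 180.7 ± 3.003 in empty MN skin and 131 ± 1.62 in untreated skin. Klf4, another barrier factor, stood at 466 ± 7.97, 611 ± 15.7 and 459 ± 10.1 CPM in loaded MN, empty MN and untreated skin. Cebpa was lower in loaded than in empty MN skin (-0.45), as was the receptor gene Notch3 (-0.24). Among the 5 that rose there were Notch1 (0.33) and Jag1 (0.35), singled out after their values were seen. For loaded MN over untreated skin Cebpa was the 1 that fell (-0.15), and Notch3 rose (0.18).

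The next list holds genes whose products bundle keratin filaments or build the cornified envelope. Of its 8 genes, Loricrin was not found in the count table under that name, and no other name was tried. All 7 tested genes were lower in loaded than in empty MN skin (median -0.34), against 18.5% of all genes. Over untreated skin 1 rose and 3 fell with loaded MN (median -0.25), and 5 rose and 2 fell with empty MN (median 0.39). Casp14, a protease that takes part in the breakdown of filaggrin, had 465 ± 17.8 CPM in loaded MN skin, 1066 ± 60.0 in empty MN skin and 627 ± 8.99 in untreated skin. Flg, which encodes the filament-bundling protein filaggrin and was singled out after its values were seen, had 1185 ± 32.8, 2402 ± 322 and 1408 ± 50.1 CPM in loaded MN, empty MN and untreated skin. Hrnr and Ivl differed from this order and were highest in untreated skin, at 1294 ± 89.8 and 612 ± 32.0 CPM, and lowest in loaded MN skin, at 623 ± 11.02 and 394 ± 7.65 CPM. Ppl rose with empty MN (0.39).

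Markers of other tissue parts moved with the groups. For their counts the shares of all genes that rose and fell are 19.0% and 23.3% for loaded MN over untreated, 22.9% and 18.5% for loaded over empty MN, and 20.2% and 28.1% for empty MN over untreated skin. The 15 pan-epithelial genes summed to 4969 ± 6.40 CPM in loaded MN skin, 4993 ± 159 in empty MN skin and 5119 ± 41.6 in untreated skin, with median log2 fold changes of 0.034 (loaded MN over untreated), -0.035 (loaded over empty MN) and 0.087 (empty MN over untreated). Within that list 6 rose and 6 fell for loaded MN over untreated skin, such as St14 (0.36) and Rab25 (-0.47). The sum of the 17 hair follicle keratins ran opposite to that of the suprabasal set. They summed to 31162 ± 1046 CPM in loaded MN skin, 18521 ± 1249 in empty MN skin and 26764 ± 139 in untreated skin. Of the 17, 16 were higher in loaded than in empty MN skin (median 0.77). The 1 that did not pass was Krt15 (-0.075), which is also given above as a chain of basal cells.

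Genes of the upper follicle and sebaceous gland, where Krt79 is also made, summed to 1341 ± 7.54 CPM in loaded MN skin, 1468 ± 31.2 in empty MN skin and 1834 ± 106 in untreated skin (14 genes). The largest share of that sum came from Cst6, singled out after its values were seen, at 654, 829 and 1091 CPM in loaded MN, empty MN and untreated skin. Of the 14, 3 rose and 6 fell for loaded MN over untreated skin (median -0.042), 7 rose and 5 fell for loaded over empty MN skin (median 0.026), and 1 rose and 8 fell for empty MN over untreated skin (median -0.21). Skeletal muscle genes summed to 9546 ± 325, 13586 ± 1135 and 10411 ± 172 CPM in loaded MN, empty MN and untreated skin, the order seen for Krt1 and Krt10. Of the 15, 12 were lower and 2 higher in loaded than in empty MN skin (median -0.57). For empty MN over untreated skin 12 rose and 1 fell (median 0.31), and for loaded MN over untreated skin 2 rose and 11 fell (median -0.22). Fibroblast genes summed to 1152 ± 17.1 CPM in loaded MN skin, 1500 ± 54.1 in empty MN skin and 1697 ± 29.2 in untreated skin. Of the 11, 9 fell and 0 rose for loaded MN over untreated skin (median -0.51). Between loaded and empty MN skin 9 fell and 1 rose (median -0.21), and between empty MN and untreated skin 8 fell and 2 rose (median -0.16).

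Adipocyte genes summed to 2063 ± 49.97 CPM in loaded MN skin, 1987 ± 136 in empty MN skin and 1947 ± 34.6 in untreated skin, but this sum is led by 1 gene. Car3, singled out after its values were seen, had 996, 1406 and 1004 CPM in loaded MN, empty MN and untreated skin. Of the 10, 9 rose and 1 fell for loaded over empty MN skin (median 1.36), 2 rose and 8 fell for empty MN over untreated skin (median -0.91), and 6 rose and 0 fell for loaded MN over untreated skin (median 0.38). Leukocyte genes summed to 367 ± 15.5 CPM in loaded MN skin, 565 ± 11.9 in empty MN skin and 493 ± 8.14 in untreated skin, with Cd74, also singled out after its values were seen, at 229, 385 and 291 CPM. Of the 11 tested, 10 fell and 0 rose for loaded MN over untreated skin (median -0.60), 8 fell and 0 rose for loaded over empty MN skin (median -0.31), and 6 fell and 2 rose for empty MN over untreated skin (median -0.40), where the sum was higher in empty MN skin. Every listed gene in the table had more than 3 counts in at least 1 library, and 1 leukocyte gene was too low to be tested. The part of these tissues in the keratin results was not tested.

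The genes whose pattern over the 9 libraries lay nearest to each keratin were found by the root-mean-square difference of centred log2 CPM among 9999 other genes of at least 10 CPM. For Krt14 they were Cd24a (0.036), a surface glycoprotein gene, Fgfbp1 (0.039), which encodes a carrier of fibroblast growth factors, and Ctss (0.051), the gene of the protease cathepsin S. Cd24a had 210 ± 3.98 CPM in loaded MN skin, 233 ± 10.6 in empty MN skin and 415 ± 26.5 in untreated skin. Krt1 lay nearest to the kallikrein protease gene Klk9 (0.057), Slc5a9 (0.091) and Dpep2 (0.092). Krt10 lay nearest to Nrtn (0.046), Slc46a2 (0.047) and another kallikrein gene, Klk11 (0.051). Klk9 had 104 ± 4.30 CPM in loaded MN skin, 205 ± 13.8 in empty MN skin and 153 ± 3.15 in untreated skin.

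The nearest to Krt2 were farther off: Mdm2 (0.30), which encodes a ubiquitin ligase for p53, Ankdd1a (0.31) and Retnla (0.33). Mdm2 stood at 70.2 ± 1.72 CPM in loaded MN skin, 143 ± 11.9 in empty MN skin and 64.3 ± 1.67 in untreated skin. Krt78 lay nearest to Tprg (0.036), Lrrc28 (0.040) and the heparanase gene Hpse (0.040), and Krt80 to Nuak1 (0.024), Capn15 (0.026) and Nbeal2 (0.027). Krt5, Krt77 and Krt79 were left out, since their group means spanned less than 0.5 on the log2 scale.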

How the data were processed

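Polyadenylated RNA from mouse skin lesions was sequenced in 9 libraries, 3 per group. Raw counts were deposited, 1 value per gene and library, per the file headers, made with HISAT2 on mm39 and featureCounts, per the submitters' processing notes. The sources used here give no versions, annotation or strand setting. Gene length equalled the whole span for 99.9% of genes, so reads in introns count too.

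Groups came from the sample titles. Genes were filtered with filterByExpr (minimum count 10, total 15), which kept 26081 genes, and scaled with TMM. The robust quasi-likelihood test of edgeR 4.0.16 (R 4.3.3) was run on all 9 libraries, each group having its own coefficient. The steps were also run on simulated data, in which far fewer genes differed than were called here. That run does not test the scaling for data in which so many genes differ. The SE is taken from the F statistic. CPM values are counts over the scaled library size. Transcript lengths and shared stretches are from GENCODE M21 on GRCm38, matched by symbol. Alternatives included DESeq2 1.42.0 and limma 3.58.1.

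The keratins and gene lists were chosen with earlier results of these data known. Named genes are the 9 keratins, up to 4 members of each list of epidermal genes with the smallest p in the 3-group test, and the 3 nearest profiles of each keratin whose group means spanned at least 0.5. A gene that this rule names is not reported here.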

Additional observations from a re-analysis of the deposited data

How the results depend on the processing

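The counts of keratins called were 8, 8 and 7 of 9 for loaded MN over untreated, loaded over empty MN and empty MN over untreated skin. In the first 2 comparisons the number higher and lower stayed within 1.5 times the reported value under every alternative run. For empty MN over untreated skin the number lower was 1, not 2, with DESeq2 size factors, upper-quartile scaling, library size alone, no filter, a mean of at least 1 CPM and only the 2 groups compared, and ran from 1 to 2 on leaving out single libraries, because Krt5 no longer passed. Reversals concerned small values. With upper-quartile scaling Krt79 was 0.017 for empty MN over untreated skin. With library size alone, Krt5 was 0.0051 for loaded MN over untreated and 0.018 for loaded over empty MN skin, and Krt79 was 0.050 for empty MN over untreated skin. On leaving out single libraries, Krt5 ran from -0.038 to 0.0065 for loaded over empty MN, Krt77 from -0.0041 to 0.049 for loaded MN over untreated, and Krt78 from -0.015 to 0.057 and Krt79 from -0.083 to 0.0062 for empty MN over untreated skin. The share of all calls that were higher was 44.9%, 55.3% and 41.7% in the 3 comparisons, and 68.1%, 61.3% and 57.9% with library size alone. With upper-quartile scaling it was 48.9%, 44.4% and 53.0%. Why the shares moved was not tested. Same-numbered libraries of different groups had correlations of -0.10 to 0.096, and differently numbered ones of -0.093 to 0.089. Of the 9 libraries, 4 correlated best with a library of their own number. The correlations are of deviations from means of 3 libraries, so they cannot settle whether equal numbers mark paired libraries. With the replicate block the counts of keratins called were again 8, 8 and 7, and those of all genes 10960, 10753 and 12490. All 5 ratios kept their call, and their direction for loaded MN over untreated skin, the only direction checked. Under the replicate block each exact permutation p was 0.0278, the smallest possible there.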
